A study of Mus musculus with 6 samples.

Results

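Potassium and sodium channel genes were followed in whole brains of mouse embryos with and without DNA topoisomerase IIβ, the enzyme encoded by Top2b that passes 1 DNA duplex through a break in another. The group was formed by name: every probe set whose gene symbol in the platform annotation starts with Kcn, Scn or Hcn. This gave 63 probe sets for 51 genes, of 12422 probe sets and 8251 genes on the Affymetrix MG_U74Av2 array. Of the 63, 51 probe sets for 42 genes belong to potassium channels and their auxiliary subunits, 9 for 7 genes carry an Scn symbol, and 3 for 2 genes belong to Hcn channels. One Scn symbol, Scnm1, names a splicing factor that modifies the effect of a sodium channel mutation, and not a channel.

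The series held 6 arrays, 1 for each genotype at each of 3 ages: Top2b+/+ and top2b-/- whole brain taken at E14.5, E16.5 or E18.5, in days of embryonic life. All embryos were on a 129SvEv background with a minor part of 129SvJ, and all were labelled male except the top2b-/- embryo at E16.5, labelled female, so at that age sex and genotype cannot be told apart. The null allele was carried by the whole embryo, and the labels do not state whether brains were pooled. No genotype and age had a second array, so ages served as replicates of genotype and genotypes as replicates of age, and p-values speak only of the spread between these 6 arrays.

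Potassium channels let potassium leave a cell, which sets the resting potential and ends the action potential, and voltage-gated sodium channels carry the current that starts it. Hcn channels open on hyperpolarisation and pass a mixed cation current that paces firing. In the embryonic brain, channel genes of these families come on at different times as progenitors give rise to neurons and the neurons become excitable.

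Values are scaled intensities: the deposited intensity of a probe set, multiplied by a factor so that all 6 arrays had the same median. The factor was 1.38 for Top2b+/+ at E16.5, whose deposited median was 55.45. It was 0.919 to 0.980 for the other arrays, with deposited medians of 78.0 to 83.2. On each array up to 18.7% of probe sets read below 0, and the size of the 5th percentile, between 26.9 and 40.7, served as that array's noise limit. The probe set for Top2b, which checks the labels, read 538, 281 and 326 in Top2b+/+, in order of age, and 48.1, 45.6 and 34.4 in top2b-/-, a log2 difference of -3.12 ± 0.22 (SE) with adjusted p = 0.0355. These top2b-/- readings were above the noise limits of their arrays, 39.4, 40.7 and 32.4. Whether they came from remaining transcript or from background was not tested. A reading above the limit is therefore not by itself evidence that a gene was expressed. Neuron markers were above the noise on all 6 arrays for 15 of 16 genes. Muscle and head tissue markers were within the noise on every array for 6 of 13 genes, Myh3, Ckm, Tnnt3, Tnni2, Krt5 and Krt14, while Myh8, Myog and Myod1 were above it on all 6 and Des and Mylpf on 5.

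Most channel probe sets were within this noise limit on at least 1 array. Above the noise on all 6 arrays were 14 of 63 (22.2%), 1 for each of 14 genes, against 6791 of all 12422 probe sets (54.7%). On 1 to 5 arrays 21 were above it, and on none 28 (44.4%), against 3722 of all probe sets (30.0%). For 20 of the 51 genes no probe set passed the limit on any array, and the 28 probe sets within the noise read between -131 and 32.6. With the noise limit at the 2.5th percentile 9 members were above it on all arrays and 40 on none, and with the 10th percentile 28 and 14. The shares of all probe sets were not counted under these other limits. A reading within the noise is a bound on these arrays, not evidence that a gene was silent.

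The classes differed in how many members could be read. Of 19 probe sets for voltage-gated potassium α subunits, which form the pore, 5 were above the noise on all arrays, 6 on some and 8 on none. Of 15 for inward rectifiers, which pass potassium best near the resting potential, 2 were above on all, 4 on some and 9 on none. Of 8 for potassium auxiliary subunits, 1 was above on all, 4 on some and 3 on none, and of 8 for voltage-gated sodium α subunits the numbers were 1, 3 and 4. Of 5 for 2-pore channels, which carry background potassium current, 2 were above on all, 1 on some and 2 on none, and of 4 for channels opened by internal ions the numbers were 1, 2 and 1. Of 3 Hcn probe sets, 2 were above on all and 1 on none, and the Scnm1 probe set was above on 1 array.

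The arrays also differed in how many channel probe sets they showed. In Top2b+/+, 25, 28 and 27 members were above the noise at the 3 ages in order, and in top2b-/- 18, 20 and 27. Over all probe sets the shares were 63.5, 64.5 and 63.1% in Top2b+/+ and 60.4, 59.4 and 62.7% in top2b-/-, and the noise limits of the top2b-/- arrays at E14.5 and E16.5 were the highest of the 6, at 39.4 and 40.7.

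**Figure D1:**
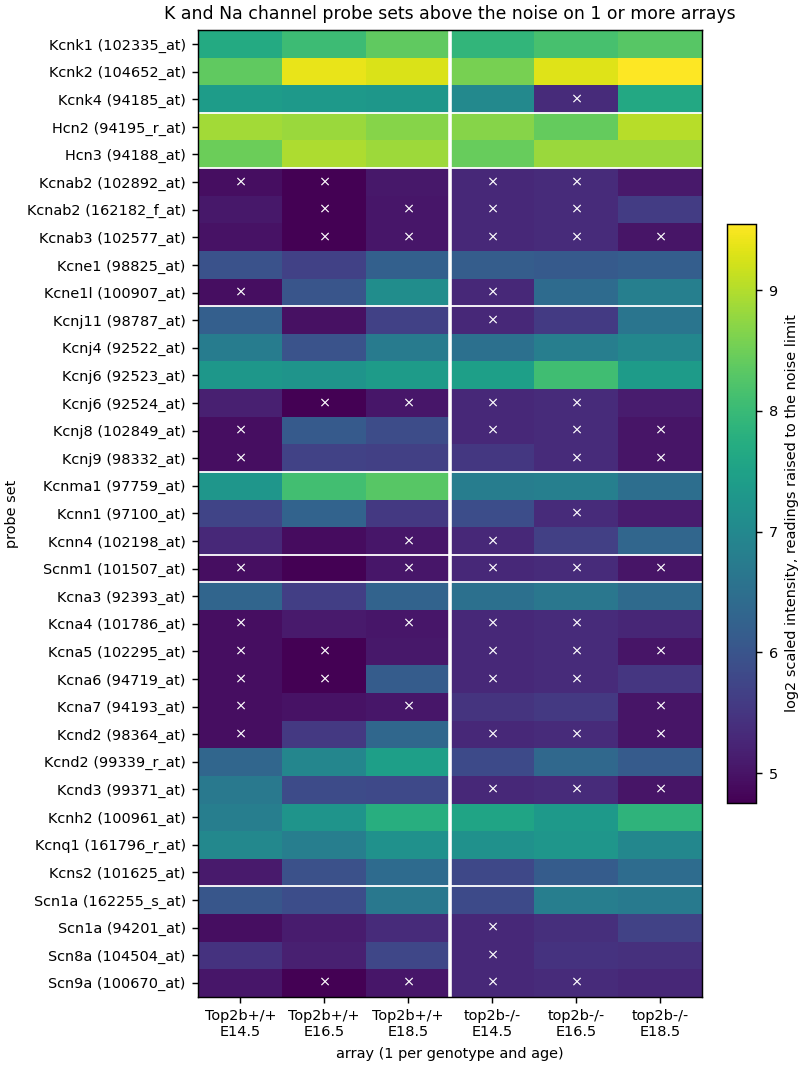
Scaled intensity of the channel members above the noise on at least 1 array, by array, as a heat map; crosses mark readings within that array's noise limit. Only 14 rows have no cross, and the rows of Kcnma1 and Kcnd3 are dimmer in top2b-/- than in Top2b+/+ at each of the 3 ages.

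Differences were tested with limma on log2 values, genotype and age together, over the 7453 probe sets whose mean log2 intensity lay above the 40th percentile. Of the 63 members 20 entered the test, and each of these 20 stood for a different gene; the 43 others are described by their readings. An adjusted p under 0.05 was called a change.

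No channel gene passed the threshold between genotypes. Of all probe sets tested, 3 did (0.0403%), and among the 20 members the lowest adjusted p was 0.491, that of Kcnma1. At an unadjusted p under 0.05 there were 2 members, Kcnma1 and Kcnd2, both lower in top2b-/-, and 488 of all probe sets, 164 higher and 324 lower. The 20 members lay to both sides of 0, 12 above and 8 below, with a median log2 difference of 0.11, against 0.01 over all probe sets tested.

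A count that also covers untested members is that of probe sets whose genotypes did not overlap, so that every top2b-/- reading was below, or above, every Top2b+/+ reading. Of 32 members above the noise on at least 2 arrays, 4 (12.5%) were lower in top2b-/- on all arrays, against 3.99% of all such probe sets. These 4 were Kcnma1, 1 of the Kcnd2 probe sets, Kcnd3 and Kcnj8. All but Kcnma1 had every top2b-/- reading within the noise and entered the count through their Top2b+/+ readings alone, as did 55 of the 328 such probe sets on the array, so the share is a description and nothing more is read from it. In the other direction 2 members (6.25%), Kcna3 and Kcna4, were higher in top2b-/-, against 4.35%.

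Kcnma1 encodes the pore-forming subunit of the BK channel, a large-conductance potassium channel opened together by calcium and depolarisation, which shortens action potentials and limits transmitter release. Its probe set (97759_at) read 154, 274 and 316 in Top2b+/+, from E14.5 to E18.5, and 111, 113 and 89.8 in top2b-/-. All 6 readings were above the noise, the genotypes did not overlap, and only the Top2b+/+ readings were higher at each later age. The Top2b+/+ reading was 1.39 times the top2b-/- reading at E14.5, 2.43 times at E16.5 and 3.52 times at E18.5. Over the 3 ages the log2 difference was -1.19 ± 0.27 (SE), lower in 3 of 3 ages, and it did not pass the threshold (adjusted p = 0.491). Without the scaling of the arrays it was -1.01 with adjusted p = 0.0495, beside a median of 0.19 over all probe sets; over 14 alternatives it ran from -1.55 to -0.88 and the adjusted p from 0.0495 to 0.998. Without the top2b-/- array at E16.5, labelled female, it was -1.14. In bulk brain RNA, fewer cells that express a gene and less RNA per cell cannot be told apart. Kcnmb1, a β subunit of the same channel, was within the noise on all 6 arrays, between -20.9 and 5.65.

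Neuron markers lay mostly on the same side of 0. Of 15 tested, 13 were below 0 in top2b-/- with a median log2 difference of -0.22, and none passed the threshold. Their summed intensity was 21757, 31533 and 27845 in Top2b+/+ and 21402, 24181 and 25427 in top2b-/-. Of 6 astrocyte markers tested all 6 were below 0 (median -0.43), and of 11 neural progenitor markers 8 were above 0 (median 0.15). Below 0 were also 2 of 3 oligodendrocyte, 3 of 3 choroid plexus, 4 of 6 muscle and head tissue and 4 of 7 microglia and blood markers, and none of these lists held a called gene. The part of these cell types in the channel readings was not tested.

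Kcnd2 and Kcnd3 encode α subunits of A-type potassium channels, which activate below firing threshold, inactivate fast and delay the next spike. Kcnd2 probe set 99339_r_at read 80.7, 125 and 177 in Top2b+/+ and 56.6, 82.4 and 69.9 in top2b-/-. Every age was lower in top2b-/-, but the groups overlapped, since the E16.5 reading of top2b-/- exceeded the E14.5 reading of Top2b+/+. The Top2b+/+ reading was 1.43, 1.51 and 2.53 times that of top2b-/- at the 3 ages, and the log2 difference of -0.82 ± 0.24 (SE) did not pass the threshold (adjusted p = 0.667).

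A second Kcnd2 probe set, 98364_at, read 28.3, 46.8 and 81.9 in Top2b+/+ and 17.0, 18.3 and 23.0 in top2b-/-. Here the genotypes did not overlap, but all 3 top2b-/- readings and the Top2b+/+ reading at E14.5 were within the noise, so no direction can be read at E14.5. At E18.5 Top2b+/+ was at least 2.53 times higher, taking the noise limit for the lower side. The suffix _r_at marks a probe set designed under relaxed rules and so less specific, while 98364_at has no such mark, and both were lower in top2b-/- at E16.5 and E18.5.

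The Kcnd3 probe set (99371_at) read 104, 57.3 and 56.3 in Top2b+/+ and -18.2, 34.0 and 21.7 in top2b-/-. It was above the noise on every Top2b+/+ array and within it on every top2b-/- array. Against the noise limit, Top2b+/+ was at least 2.64, 1.41 and 1.74 times higher from the first age to the last. Neither Kcnd3 nor 98364_at passed the filter on mean intensity, so these differences have no test. The third member of the family, Kcnd1, was within the noise on all arrays.

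The promoters of Kcnma1, Kcnd2, Kcnd3 and Kcnj8, a vessel channel gene described next, are shown because each gene had a probe set lower in top2b-/- without overlap, together with that of Kcne1l, the 1 member that changed with age. Each is the RefSeq window of GRCm38.p6 from 250 bases before to 50 after the annotated start, read 5′ to 3′ on the gene's strand. Capitals mark the GC box, the letters GGGCGG on either strand. The windows lie at chr14:24004156-24004455 (minus strand) for Kcnma1, chr6:21215096-21215395 (plus) for Kcnd2, chr3:105451640-105451939 (plus) for Kcnd3, chr6:142571565-142571864 (minus) for Kcnj8 and chrX:142306149-142306448 (minus) for Kcne1l.
Kcnma1: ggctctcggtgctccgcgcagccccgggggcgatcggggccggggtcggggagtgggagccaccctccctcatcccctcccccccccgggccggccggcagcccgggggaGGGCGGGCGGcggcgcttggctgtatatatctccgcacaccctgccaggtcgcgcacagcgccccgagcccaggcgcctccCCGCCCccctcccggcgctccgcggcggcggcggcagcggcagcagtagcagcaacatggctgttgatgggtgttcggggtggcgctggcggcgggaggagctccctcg
Kcnd2: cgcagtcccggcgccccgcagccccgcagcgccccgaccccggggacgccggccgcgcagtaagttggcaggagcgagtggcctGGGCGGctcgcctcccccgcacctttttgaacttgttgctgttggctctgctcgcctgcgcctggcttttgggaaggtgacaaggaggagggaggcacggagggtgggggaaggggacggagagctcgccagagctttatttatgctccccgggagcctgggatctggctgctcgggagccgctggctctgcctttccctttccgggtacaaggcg
Kcnd3: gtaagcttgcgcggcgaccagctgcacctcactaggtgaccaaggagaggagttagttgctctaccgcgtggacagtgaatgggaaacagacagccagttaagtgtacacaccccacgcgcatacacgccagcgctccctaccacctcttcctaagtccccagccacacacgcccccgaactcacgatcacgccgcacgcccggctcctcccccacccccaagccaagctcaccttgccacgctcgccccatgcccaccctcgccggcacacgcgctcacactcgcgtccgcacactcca
Kcnj8: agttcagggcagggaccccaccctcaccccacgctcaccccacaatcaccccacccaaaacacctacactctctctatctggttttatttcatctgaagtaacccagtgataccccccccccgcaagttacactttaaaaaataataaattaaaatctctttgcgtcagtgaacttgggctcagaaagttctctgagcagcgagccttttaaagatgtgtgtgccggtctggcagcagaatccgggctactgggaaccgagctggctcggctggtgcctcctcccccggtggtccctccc
Kcne1l: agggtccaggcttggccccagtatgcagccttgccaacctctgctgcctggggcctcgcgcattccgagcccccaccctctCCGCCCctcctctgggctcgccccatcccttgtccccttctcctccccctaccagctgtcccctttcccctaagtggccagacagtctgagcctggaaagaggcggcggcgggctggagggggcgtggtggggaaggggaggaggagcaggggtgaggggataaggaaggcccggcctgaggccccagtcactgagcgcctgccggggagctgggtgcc

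The Kcnma1 window was 78.0% G and C with 36 CpG dinucleotides and 3 GC boxes, of which 2 overlap. The Kcnd2 window was 68.7% G and C with 26 CpG and 1 GC box, the Kcnd3 window 64.0% with 25 CpG and no GC box, the Kcnj8 window 53.3% with 9 CpG and no GC box, and the Kcne1l window 69.7% with 12 CpG and 1 GC box. Over all 32851 RefSeq windows of this length the median was 52.7% G and C with 7 CpG, and over the 49 windows held for 39 member genes it was 58.3% with 10 CpG. A GC box was in 35.7% of all windows and 49.0% of member windows. The letters TATAAA, on either strand, were in 13.6% of all windows and 6.12% of member windows, and CCAAT in 37.4% and 18.4%. None of the 5 windows shown holds TATAAA or CCAAT. These are matches of letters and not shown to be bound sites.

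Kcnj8 encodes a pore subunit of ATP-sensitive potassium channels, found in brain mainly in pericytes and smooth muscle of vessels. Its probe set (102849_at) read 29.9, 68.9 and 58.1 in Top2b+/+ and 6.98, 12.2 and 24.3 in top2b-/-. The genotypes did not overlap, and only the Top2b+/+ readings at E16.5 and E18.5 were above the noise, at least 1.69 and 1.79 times those of top2b-/-. The probe set did not pass the filter and has no test.

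Among 10 endothelial and mural markers, all tested, 8 were below 0 in top2b-/- with a median log2 difference of -0.15, and none passed the threshold. Their summed intensity was 1289, 1881 and 1441 in Top2b+/+ and 1450, 1308 and 1362 in top2b-/-. The partner subunit Abcc9 read 46.8, 48.2 and 49.2 in Top2b+/+ and 34.6, 34.6 and 31.3 in top2b-/-, and the pericyte marker Rgs5 read 52.7, 48.6 and 53.5 against 36.0, 26.9 and 24.8. All top2b-/- readings of Abcc9 and Rgs5 were within the noise and all their Top2b+/+ readings above it, and Pdgfrb read 34.2, 43.8 and 45.4 against 36.4, 39.9 and 41.1. Rgs5 (log2 difference -0.84 ± 0.31, adjusted p = 0.747 by limma) and Abcc9 (-0.52 ± 0.29, adjusted p = 0.773) were the lowest of the 10. Above 0 were Pecam1 (0.33 ± 0.32) and Tek (0.30 ± 0.22). The part of vessel cells in the Kcnj8 readings was not tested.

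Kcna3 and Kcna4 encode α subunits of Shaker-type channels, Kcna3 of a delayed rectifier and Kcna4 of an inactivating one. Kcna3 read 79.6, 49.8 and 77.4 in Top2b+/+ and 92.1, 100.1 and 85.4 in top2b-/-. The groups did not overlap, but the gap between the highest Top2b+/+ and the lowest top2b-/- reading was small, and the log2 difference of 0.45 ± 0.26 (SE) did not pass the threshold (adjusted p = 0.778). This difference moved to 0.18 when either of the E16.5 arrays was left out. Kcna4 read 30.0, 34.4 and 30.9 in Top2b+/+ and 35.5, 38.1 and 38.4 in top2b-/-. These readings sat around the noise limits of their arrays, and Kcna4 was not tested.

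**Figure D2:**
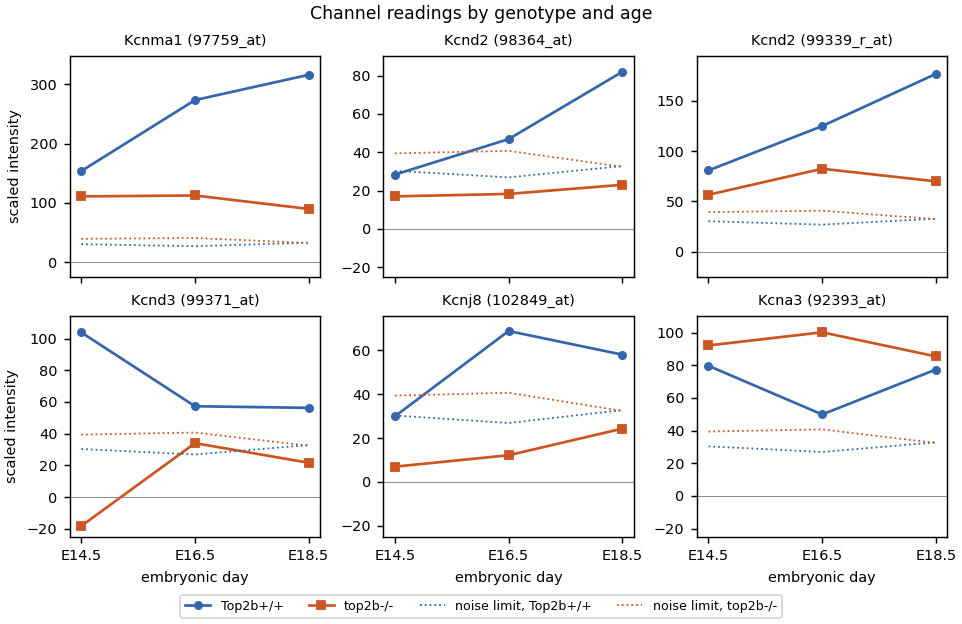
Scaled intensity against embryonic day for 6 channel probe sets of 5 genes, 1 point per array, Top2b+/+ and top2b-/- as separate lines, with the noise limits shown. The Kcnma1 lines part from E14.5 (154 against 111) to E18.5 (316 against 89.8), and the Kcnd3 readings of top2b-/- all lie within the noise.

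Within a single age there is no test, and the readings were compared after raising each to its noise limit. At E14.5, 1 of 27 members above the noise on either array was at least 2-fold apart (3.70%, against 3.98% of all probe sets), and this was Kcnd3. At E16.5 it was 3 of 28 (10.7%, against 7.07%): Kcna3 was higher in top2b-/-, and Kcnma1 and Kcnk4 lower. At E18.5 it was 4 of 32 (12.5%, against 4.58%): Kcnma1 and both Kcnd2 probe sets lower, and Kcnn4 higher. Without scaling the count at E16.5, where the Top2b+/+ array had the factor of 1.38, was 10. That factor applies to every probe set of the array, and the share of all probe sets without scaling was not counted. Nothing about the members is therefore read from the 10. The counts at the other ages did not move by over 1.5 times.

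Kcnk4, a 2-pore channel opened by membrane stretch, owed its place to a single array. It read 170, 161 and 157 in Top2b+/+ and 129, 13.9 and 201 in top2b-/-. At E16.5 Top2b+/+ was at least 3.95 times higher, while at E18.5 top2b-/- was the higher, so the groups overlapped. The log2 difference of -1.19 ± 0.73 (SE, adjusted p = 0.790) moved to -0.02 without either of the E16.5 arrays.

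Kcnn4, an intermediate-conductance potassium channel opened by calcium, read 39.6, 30.2 and 23.2 in Top2b+/+ and 39.1, 50.4 and 80.4 in top2b-/-. The groups overlapped at E14.5, and at E18.5 top2b-/- was at least 2.45 times higher. The log2 difference over the ages was 0.84 ± 0.42 (SE, adjusted p = 0.768). Kcnn1, a small-conductance channel of the same family, read 53.2, 77.8 and 46.5 in Top2b+/+ and 59.3, 38.8 and 34.5 in top2b-/-, with overlap between the genotypes.

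**Figure D3:**
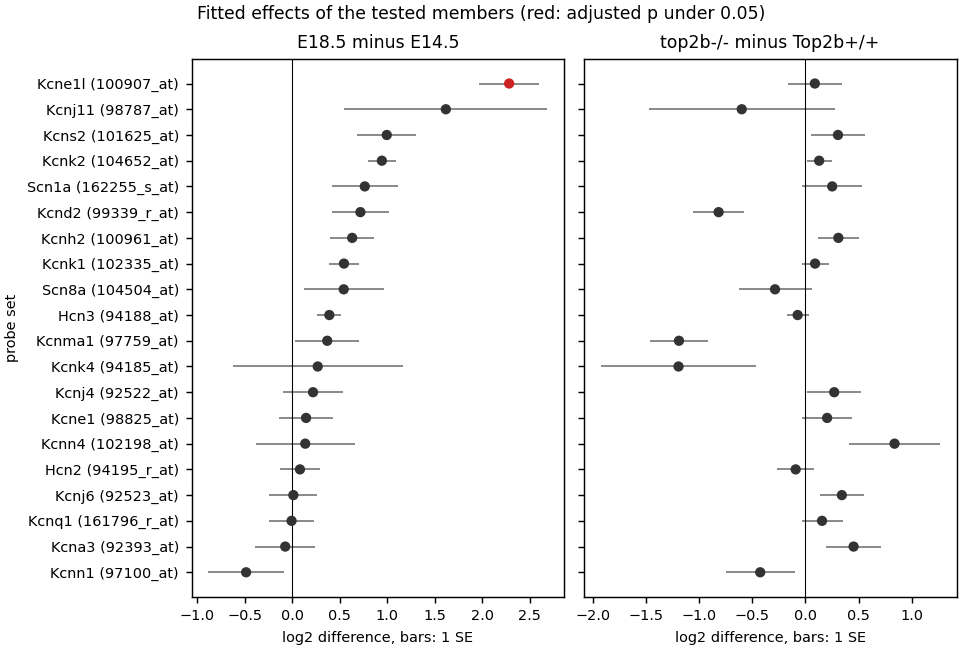
Fitted log2 differences of the 20 tested channel probe sets, top2b-/- minus Top2b+/+ and E18.5 minus E14.5, with standard errors as bars. Kcnma1 (-1.19) and Kcnd2 (-0.82) lie to the left between genotypes, and 17 of 20 members lie above 0 with age.

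Gene length is a property that the choice of members did not use. The 51 genes had a median RefSeq span of 32.1 kb, and 7 exceeded 200 kb: Kcnma1 (713 kb), Kcnd2 (514 kb), Kcnab1 (429 kb), Kcnh1 (321 kb), Kcnq1 (320 kb), Kcnj6 (253 kb) and Kcnd3 (222 kb). Of the 5 of these with a probe set above the noise on at least 2 arrays, 3 had one that was lower in top2b-/- without overlap. Of the 23 shorter genes read as well, 1 did, Kcnj8, which spans 6.78 kb. Over all genes read this way the numbers were 72 of 245 above 200 kb (29.4%) and 204 of 5923 up to it (3.44%). Of the 3 long channel genes, only Kcnma1 was counted by a probe set above the noise in both genotypes. Kcnd3, Kcnd2 by 98364_at and the short gene Kcnj8 were above it in Top2b+/+ alone, and the tested Kcnd2 probe set overlapped. The counts of long and short channel genes are therefore a description and nothing more is read from them. The other long channel genes read, Kcnq1 and Kcnj6, were not lower without overlap, as was so for most genes above 200 kb.

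Kcnq1, the pore subunit of a slow delayed rectifier known best from heart, read 127, 111 and 145 in Top2b+/+ and 145, 155 and 126 in top2b-/- by probe set 161796_r_at. Kcnj6, a G-protein-gated inward rectifier, read 157, 150 and 168 against 177, 271 and 168 by probe set 92523_at, with the highest reading in top2b-/- at E16.5. Both genes overlapped between genotypes, and their log2 differences were 0.16 and 0.34. Kcnab1 and Kcnh1 were within the noise on all arrays.

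Over all tested genes longer than 200 kb, 153 of 216 were below 0 in top2b-/- with a median log2 difference of -0.20, and of the 4 member genes tested 2 were, with a median of -0.33. Up to 50 kb, 2109 of 4310 genes and 5 of 13 member genes were below 0, and between 50 and 200 kb 530 of 1162 and 1 of 3. Across the 20 member genes Spearman's rho between length and genotype difference was -0.14, and across 5688 genes 0.02. Genes of 1 array share its scaling and noise, so these are descriptions; rho over the 20 members was -0.33 with readings raised to the noise limit and -0.18 with quantile normalization, and 0.12 over the 8 members left by a filter at the 60th percentile.

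**Figure D4:**
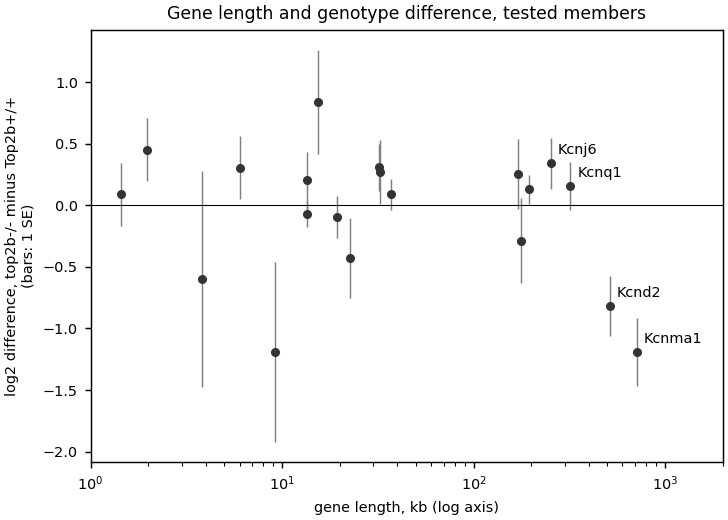
Gene span in kb (log axis) against the log2 genotype difference for the 20 tested channel genes, 1 point per gene. Kcnma1, at 713 kb and -1.19, and Kcnd2, at 514 kb and -0.82, lie lower right, while Kcnq1 and Kcnj6, also over 200 kb, lie above 0.

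With age the channel members lay mostly above 0. Between E14.5 and E18.5, 17 of the 20 tested had a positive log2 difference, with a median of 0.38, against 3336 of 7453 and a median of -0.05 over all probe sets. One member passed the threshold, Kcne1l, which rose, against 1.49% of all probe sets in either direction and 0.59% upward. At an unadjusted p under 0.05 there were 6 members, all higher at E18.5, and 1500 of all probe sets, 689 higher and 811 lower. Among the 32 members above the noise on at least 2 arrays, both E18.5 readings exceeded both E14.5 readings for 11 (34.4%), against 23.6% of all such probe sets, and were below both for 2 (6.25%), against 31.2%. Of the 11, Kcna6 and Kcnab2 (102892_at) were above the noise at E18.5 alone and entered the count through those readings. The shares are therefore a description and nothing more is read from them.

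Markers of neurons, astrocytes and neural progenitors moved with age as well. Of 15 neuron markers tested, 12 were above 0 with a median of 0.22, and Snap25 and Eno2 rose. Of 6 astrocyte markers tested, all 6 were above 0 with a median of 1.03, and Aqp4 and Apoe rose; their summed intensity went from 3628 to 7370 in Top2b+/+ and from 3494 to 6230 in top2b-/-. Of 11 neural progenitor markers, 9 were below 0 with a median of -0.47, and 3 fell. Their part in the channel readings was not tested.

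Kcne1l, now also named Kcne5, encodes a single-pass auxiliary subunit that modifies potassium channel gating, and lies on the X chromosome. It read 24.3, 65.0 and 137 in Top2b+/+ and 26.7, 86.5 and 113 in top2b-/-. Both E14.5 readings were within the noise and all later ones above it, and each genotype was highest at E18.5. Against the noise limit, E18.5 was at least 4.52 times higher in Top2b+/+ and 2.86 times in top2b-/-, and the log2 difference was 2.28 ± 0.31 (SE, adjusted p = 0.0403). The call was lost without any 1 of the 6 arrays (adjusted p between 0.0877 and 0.195, log2 difference between 2.01 and 2.56), without the filter (0.194) and without the intensity trend (0.0782), and held without scaling (0.000815). Between genotypes its log2 difference was 0.09 ± 0.26.

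Kcnk2 encodes a 2-pore background channel opened by stretch and fatty acids. It read 332, 675 and 618 in Top2b+/+ and 378, 638 and 751 in top2b-/-. E16.5 and E18.5 were high and E14.5 low in both genotypes, 1.86-fold and 1.99-fold from first to last. The log2 difference of 0.94 ± 0.14 (SE) just missed the threshold with adjusted p = 0.0502, and passed it without scaling (0.0143), with quantile normalization (0.0269), with readings raised to the noise (0.0397), with a floor of 16 (0.0449) and with a 60th percentile filter (0.0270); the highest adjusted p of its alternatives was 0.261. Kcnk1, a weakly rectifying channel of the same family, read 205, 264 and 332 in Top2b+/+ and 240, 286 and 316 in top2b-/-, higher at each later age in both genotypes (log2 difference 0.54 ± 0.16, adjusted p = 0.135).

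Hcn3 read 358, 502 and 464 in Top2b+/+ and 345, 455 and 456 in top2b-/-. E14.5 was lowest in both genotypes, with a log2 difference of 0.39 ± 0.13 (SE, adjusted p = 0.176). Hcn2, the other pacemaker channel gene of the array, read 471, 457 and 411 against 409, 341 and 524 by probe set 94195_r_at, with no common direction (0.08 ± 0.21).

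Of the voltage-gated α subunits, Kcns2, an electrically silent subunit that modifies others, read 34.1, 61.5 and 86.2 in Top2b+/+ and 55.2, 71.3 and 86.8 in top2b-/-. It was higher at each later age in both genotypes (log2 difference 0.99 ± 0.31, adjusted p = 0.162). Kcnh2, the channel that repolarises heart muscle and is also found in neurons, read 112, 151 and 218 in Top2b+/+ and 189, 160 and 233 in top2b-/-. Its E18.5 readings were the highest of each genotype (0.63 ± 0.23, adjusted p = 0.219). Kcna6, a Shaker-type subunit that was not tested, read 21.3, 17.2 and 70.7 against 6.58, 26.4 and 45.4, above the noise only at E18.5.

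Scn1a encodes a voltage-gated sodium channel α subunit that in mature brain is prominent in inhibitory neurons. Probe set 162255_s_at, whose suffix marks probes shared by similar transcripts, read 65.9, 59.3 and 103 in Top2b+/+ and 57.0, 112 and 106 in top2b-/-. Probe set 94201_at read 30.5, 34.5 and 40.4 against 19.97, 42.4 and 51.6. In both, each E18.5 reading exceeded both E14.5 readings, and the log2 difference of the tested one, 162255_s_at, was 0.76 ± 0.35 (SE, adjusted p = 0.295). Scn8a, the sodium channel of the axon initial segment in mature neurons, read 43.8, 35.8 and 54.8 against 25.3, 43.8 and 42.8 by 104504_at, within the noise only in top2b-/- at E14.5. Scn3a, Scn7a and Scn10a were within the noise on all arrays, and Scn9a on 4 of 6.

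**Figure D5:**
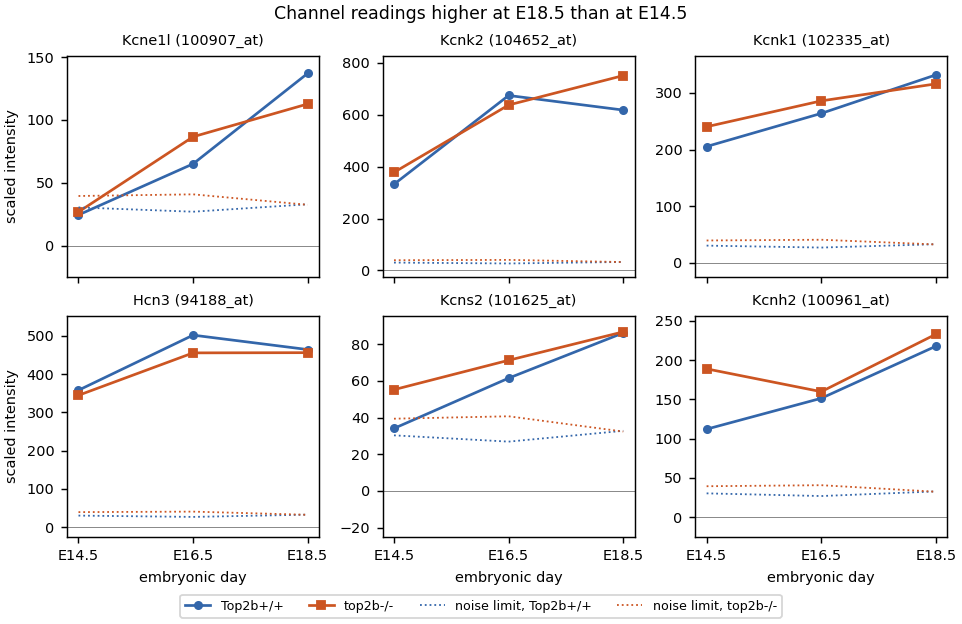
Scaled intensity against embryonic day for 6 channel probe sets whose E14.5 and E18.5 readings did not overlap, 1 point per array and a line per genotype. Kcne1l goes from within the noise at E14.5 to 137 and 113 at E18.5, and Kcnk2 from 332 and 378 to 618 and 751.

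The other auxiliary subunits had no called difference with age. Kcne1, a partner of Kcnq1, read 62.0, 51.02 and 74.8 in Top2b+/+ and 71.9, 69.0 and 72.8 in top2b-/-, and its log2 difference with age, 0.14 ± 0.28, became -0.04 without the Top2b+/+ array at E18.5. Kcnab2 (102892_at), a cytoplasmic β subunit, read 16.9, 25.1 and 33.3 against 27.0, 27.7 and 33.6, and passed the noise only at E18.5. Lower at E18.5 than at E14.5 without overlap were Kcnn1, described above (log2 difference -0.49 ± 0.40, adjusted p = 0.544), and the second Kcnj6 probe set, 92524_at, which read 36.2, 9.89 and 18.4 in Top2b+/+ and 36.5, 30.1 and 34.7 in top2b-/-. The Kcnj6 readings were near or within the noise on all arrays.

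Inward rectifiers gave no common direction. Kcnj4, a strongly rectifying channel, read 109, 62.9 and 108 in Top2b+/+ and 92.2, 112 and 126 in top2b-/-. Kcnj11, the pore subunit of the ATP-sensitive channel of neurons and pancreatic β cells, read 73.8, 31.2 and 50.9 in Top2b+/+ and 7.24, 47.1 and 98.8 in top2b-/-. Kcnj11 was lowest at E14.5 in top2b-/- and at E16.5 in Top2b+/+. Kcnj1, Kcnj2, Kcnj3, Kcnj5, Kcnj12 and Kcnj15 were within the noise on all arrays.

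Probe sets of the same gene often gave different readings. Of 12 genes with several probe sets, Hcn2 and Kcnq1 each had 1 above the noise on all arrays and 1 within it on all. Hcn2 94194_s_at read between -47.3 and 24.3, and Kcnq1 99322_at between -5.19 and 5.93, while in both genes the bright probe set was of the less specific _r_at kind. The Hcn2 and Kcnq1 values above rest on those probe sets. Both Kcnd2 probe sets were lower in top2b-/- at E16.5 and E18.5, and both Scn1a probe sets were higher at E18.5 than at E14.5 in each genotype.

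Whether genotypes differed in their course with age was tested as an interaction, in log2 per day. None of 7453 probe sets passed (0%, with 317 at an unadjusted p under 0.05), and of the 20 members none did, with the lowest adjusted p at 0.9998. At an unadjusted p under 0.05 there were 3 members, Kcnma1 (-0.34 per day), Kcnn4 (0.45) and Kcnj11 (1.08). Without the top2b-/- array at E14.5, or that at E18.5, Kcnk4 alone passed among the members, with opposite signs (1.95 and -1.58 per day), its top2b-/- reading at E16.5 being the one within the noise. In these fits 41 and 31 of all 7453 probe sets passed, against none with all arrays. The course of top2b-/- then rested on its remaining arrays alone, so nothing is read from these calls.

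Genes that act with these channels were read from 3 lists. Of 22 calcium channel genes 12 were on the array and 7 tested: 3 were above and 4 below 0 between genotypes (median -0.04), and 1 fell. This was Cacna2d3, an auxiliary α2δ subunit, which read 181, 305 and 307 in Top2b+/+ and 6.34, 11.8 and 4.89 in top2b-/-. The groups did not overlap, Top2b+/+ was at least 4.60, 7.48 and 9.47 times higher, and the adjusted p was 0.0355. Every top2b-/- reading was within the noise, so the size of the difference is known only as these bounds. The gene entered the test through its Top2b+/+ readings. Cacna2d1 (-2.21 ± 0.35, adjusted p = 0.245), Cacna1h (1.17 ± 0.50, adjusted p = 0.749) and Cacna1b (0.12 ± 0.21) were the next largest log2 differences in each direction. The value of Cacna2d1 includes top2b-/- readings within the noise at E16.5 and E18.5. That of Cacna1h includes Top2b+/+ readings within it at E14.5 and E16.5. With age 5 of 7 were above 0 (median 0.35) and none passed, Cacng2 (0.93 ± 0.22) and Cacna1b (0.89 ± 0.26) being the largest.

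Of 25 partner and clustering genes, 15 were on the array and 12 tested. Between genotypes 9 were below 0 and 3 above (median -0.21), and none passed. Ank3, the ankyrin that anchors sodium channels at the axon initial segment, read 554, 738 and 598 in Top2b+/+ and 303, 328 and 307 in top2b-/- (log2 difference -0.999 ± 0.11, adjusted p = 0.126). Fgf13, which binds the tail of sodium channels, read 174, 215 and 247 against 88.2, 114 and 99.6 (-1.07 ± 0.16, adjusted p = 0.233). Dpp6, a partner of Kcnd2 named here after its values were seen, read 424, 616 and 704 against 306, 362 and 348. The genotypes did not overlap for any of these 3 genes, which were picked by their values, so this is a description. Of all probe sets above the noise on at least 2 arrays, 3.99% were lower in top2b-/- without overlap. Dlg1 (0.27 ± 0.16) and Rest (0.08 ± 0.26) were the largest above 0. With age 9 of 12 were above 0 (median 0.21), led by Cntn1 (1.24 ± 0.23, adjusted p = 0.0693) and Dlg4 (0.50 ± 0.18), and none passed.

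Of 28 ion pump and chloride transport genes, 18 were on the array and 14 tested. Between genotypes 9 were below 0 and 5 above (median -0.05), with Fxyd7 (-2.71 ± 0.60) and Atp1b2 (-1.31 ± 0.30), both subunits that associate with the sodium pump, lowest, and Slc12a5 (0.41 ± 0.43) and Clcn4 (0.14 ± 0.16) highest. With age 11 were above 0 and 3 below (median 0.24). Atp1b2 (2.41 ± 0.37, adjusted p = 0.0502) and Fxyd7 (4.65 ± 0.73, adjusted p = 0.0516) were the largest, and Slc12a4 (-2.29 ± 1.52) and Slc12a7 (-0.85 ± 0.26) the lowest. Fxyd7 read 31.4, 262 and 296 in Top2b+/+ and -9.38, 22.9 and 159 in top2b-/-. Atp1b2 read 36.5, 74.2 and 147 against 10.7, 32.6 and 74.8. In both genes the top2b-/- readings at E14.5 and E16.5 were within the noise, and both log2 differences of each gene include them. Slc12a4 read higher at each later age in Top2b+/+ (43.6, 52.8 and 81.4). In top2b-/- it read 107, 78.4 and 0.739, the last within the noise. None of the 14 genes passed in either comparison.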

How the data were processed

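Intensity values of 6 MG_U74Av2 arrays were used as deposited by the authors in the series matrix, and per the labels total RNA was extracted with Trizol and RNeasy and labelled by in vitro transcription. Analysis in Rosetta Resolver is named in the design text; the summary of probes, background and scaling are not given in the sources used here. Control probe sets (66) were left out, each array was scaled to a common median, values were floored at 2.39 (the 20th percentile of all readings) and log2 was taken. Fold changes are therefore on a floored log2 scale. limma 3.58.1 in R 4.3.3 fitted genotype plus age (3 levels, 2 residual degrees of freedom) with an intensity trend, and genotype by age in days, each over 7453 probe sets with Benjamini-Hochberg adjustment. Of 12422 probe sets 10833 carry 1 gene symbol, 396 several and 1193 none; symbols are from the platform annotation and all 63 members matched RefSeq (GRCm38.p6). The fit was tested on simulated data for the sign and mean size of planted differences. The share of planted differences that it recovered is not given here, so this says nothing of changes missed between genotypes.

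Values on every array were given for Kcnma1 and for members past a threshold, above the noise on all arrays, not overlapping between groups while above the noise on at least 2 arrays, or at least 2-fold apart at an age (26 probe sets), with the largest changes of each pathway list. Kcnj11, Scn8a and the markers were added after their values were seen. Members and lists were chosen with earlier results of these data known. Alternatives were scaling, floor, filter, trend, age as a number, noise limit and leaving out each array. The number of arrays limits the precision.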

Additional observations from a re-analysis of the deposited data

Results flagged for a closer look

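The change per day differed between genotypes for 3 channel genes at an unadjusted p under 0.05, and for none after adjustment (adjusted p = 0.9998 by limma). Kcnma1 differed by -0.34 log2 per day, with the Top2b+/+ readings higher at each later age and the top2b-/- readings not. Kcnn4 differed by 0.45 log2 per day, with its Top2b+/+ reading at E18.5 and its top2b-/- reading at E14.5 within the noise. Kcnj11 differed by 1.08 log2 per day, a value that includes a top2b-/- reading within the noise at E14.5.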

How the results depend on the processing

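With the arrays not scaled, the median genotype difference of all probe sets moved to 0.19 on the log2 scale, and 110 probe sets passed for genotype (40 higher, 70 lower), 352 for age and 50 for the interaction; 1 channel gene then passed for genotype, Kcnma1. With readings raised to the noise limit 8 passed for genotype and 174 for age, with quantile normalization 266 for age, with a 60th percentile filter 225 and with age as a number 175. Without the filter 0 passed for genotype and 4 for age, and without the intensity trend 0 and 0. Channel genes past the age threshold were 2 (Kcne1l and Kcnk2) with no scaling, quantile normalization, readings raised to the noise limit or a floor of 16, and 0 without the filter or the trend. Leaving out 1 array gave 0 to 5 calls for genotype, 3 to 17 for age and 0 to 50 for the interaction, with 0 channel genes for age and 0 to 1 for the interaction. The age difference of Kcne1 then ranged from -0.037 to 0.326, below 0 without the Top2b+/+ array at E18.5. A noise limit at the 2.5th percentile left 9 channel probe sets above it on all arrays and 40 on none, and one at the 10th percentile 28 and 14. At least 2-fold apart at E16.5 were 10 channel probe sets without scaling, an alternative chosen after seeing the data. The share of all probe sets was not counted for it. Of 187 fitted values of channel genes under these alternatives, 172 kept their direction and side of the threshold, 6 passed it newly, 8 lost it and 1 reversed. The causes were not tested. The fit with age as a term compares the genotypes within each age, and the labels give no replicate numbers for another pairing.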
